A study of Mus musculus with 9 samples.

Results

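The cells described here are somatotroph-like pituitary cells, defined as the cells of 3 libraries in which Gh, the growth hormone gene, took 50% or more of all transcripts counted in the cell. Members were thus chosen by a measured value, the Gh share of the cell. Libraries 4, 5 and 6 held 919 of 3491, 660 of 2706 and 1574 of 3916 cells of this kind. The shares were 26.3% (exact Clopper-Pearson 95% interval 24.9 to 27.8), 24.4% (22.8 to 26.1) and 40.2% (38.7 to 41.7). These 3153 cells, called members here, were 10.7% of the 29571 cells of the series and 31.2% of the 10113 cells of their own libraries. The study counted single-cell transcripts by 10x Chromium version 2, in which unique molecular identifiers (UMIs) tag each captured RNA molecule, in cortex, hypothalamus and brainstem of male C57BL/6 mice (C57BL/6J in the study's methods) aged 9 to 11 weeks. Its groups were ad libitum normal sleep (NS), sleep deprivation for 12 h from lights on (SD), and the same deprivation followed by recovery sleep (RS), given as 24 h in one label text and as 12 h in another. Brains were taken at ZT12, the time of lights off, and each library pools tissue of 3 animals, with no replicate pool of the same region and group. The count table names its 9 libraries only by a code that the labels do not explain. Libraries are therefore numbered by their order of appearance, none was given a region or a sleep group, and no sleep comparison was made. No label names the pituitary, which hangs below the hypothalamus.

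Somatotrophs are the cells of the anterior pituitary that make and release growth hormone, which acts on the liver and other tissues in part through insulin-like growth factor (IGF). The hypothalamic peptide GHRH drives them through its receptor Ghrhr, the stimulatory G protein Gnas and cAMP, and somatostatin restrains them through the Sstr receptors. The POU-family factor Pou1f1 (Pit-1) is needed for somatotrophs, lactotrophs and thyrotrophs and acts at AT-rich elements in the promoters of hormone genes.

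The gene starts where Pou1f1 elements could lie are shown first, for Pou1f1 itself, for Prl, the prolactin gene, and for Pappa2 and Dapl1, a pair of the genes highest in members relative to the other cells. Each sequence is the 250 bases before the start of the gene, 5′ to 3′ on the strand of the gene, from RefSeq (GRCm38.p6). Capitals mark each match to the 7 letters ATGNATA, a short form of the Pou1f1 element, read on both strands, and no other motif was searched.
Pou1f1, chr16:65520262-65520511, plus strand: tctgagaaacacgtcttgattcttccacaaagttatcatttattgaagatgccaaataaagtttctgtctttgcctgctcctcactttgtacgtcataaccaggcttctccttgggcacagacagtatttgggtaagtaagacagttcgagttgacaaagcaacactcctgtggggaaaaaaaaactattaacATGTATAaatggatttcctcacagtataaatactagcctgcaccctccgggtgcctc
Prl, chr13:27057320-27057569, plus strand: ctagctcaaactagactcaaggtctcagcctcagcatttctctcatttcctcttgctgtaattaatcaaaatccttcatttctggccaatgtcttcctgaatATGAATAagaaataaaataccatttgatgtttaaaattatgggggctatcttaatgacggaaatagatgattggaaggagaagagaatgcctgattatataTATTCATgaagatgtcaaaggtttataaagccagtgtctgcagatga
Pappa2, chr1:158958176-158958425, minus strand: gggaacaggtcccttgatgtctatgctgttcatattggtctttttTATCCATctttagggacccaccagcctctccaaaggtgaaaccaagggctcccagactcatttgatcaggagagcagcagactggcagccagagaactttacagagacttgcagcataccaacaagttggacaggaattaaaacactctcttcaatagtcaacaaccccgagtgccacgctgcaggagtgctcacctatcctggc
Dapl1, chr2:59484403-59484652, plus strand: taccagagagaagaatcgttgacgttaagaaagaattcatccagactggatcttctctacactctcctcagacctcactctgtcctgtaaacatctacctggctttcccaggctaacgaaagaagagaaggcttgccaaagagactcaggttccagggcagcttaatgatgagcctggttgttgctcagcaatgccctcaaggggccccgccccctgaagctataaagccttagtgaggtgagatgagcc
Pou1f1 held 1 match, 57 bases before its start, and the window before its other start, at chr16:65523059-65523308, held none. Prl held a match at 148 and another at 47 bases, Pappa2 1 match at 205 bases, and Dapl1 none. The Pappa2 window lies within the longer gene model of GENCODE M21 (chr1:158711727-158980490, minus strand), upstream of another start. The letters occurred in 7.92% of all 32851 windows of this length, in 4.54% of the 4623 genes tested that had a window, and in 5.26% of the 133 such genes that were higher in members than in other cells. Of the 15 genes with the highest ratio of members over other cells, 11 had a window and 2 of these held a match. The matches are descriptions of letters in these windows. Gh and Ghrhr had no entry in the set of windows used here.

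Across the series, libraries held 2575 to 3916 cells and 1522766 to 5488950 UMIs, and libraries 4 to 6 held 3965301, 2121900 and 5488950. The rule found no member among the 19458 cells of the other 6 libraries, which allows a share of up to 0.0154%. There Gh reached at most 2.10% of the UMIs of any cell, Ghrhr had 0 UMIs and Pou1f1 had 1 UMI of 19892104. Libraries shared some cell barcodes, with 549 of 29015 distinct barcodes found in 2 or more, and 114 members (3.62%) carried a barcode also seen in another library. Within libraries 4 to 6, Gh was in nearly every cell at a low level. Microglia-led cells (3 or more UMIs over at least 2 microglial markers and under 50% Gh), a type that should lack the gene, had a Gh UMI in 100%, 95.3% and 100% of cells, at a median of 6, 3 and 15.5 UMIs. That level is read as background. Some of these cells held more, as the mean was 33.3, 13.5 and 118 UMIs, and Prl took 10% or more of the UMIs without Gh in 3, 3 and 5 of the 181, 169 and 44 cells. Their summed Gh share of 4.11%, 2.67% and 9.56% is therefore not the level of a typical cell. Library 5 stood apart among the 3 in activity-induced genes, so values are given by library except where pooling is stated.

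Gh, at chr11:106300271-106301865 on the minus strand (GRCm38), chose the members, so its values are a description. In the 3 libraries Gh took 25.3%, 27.9% and 32.1% of all UMIs, and members held 86.9%, 93.4% and 87.1% of the Gh UMIs. Intermediate shares were uncommon. Cells with under 5% Gh numbered 2328, 1947 and 1977, those from 5% to under 30% numbered 59, 30 and 114, and those from 30% to under 50% numbered 185, 69 and 251. The median member had 836, 677.5 and 771.5 Gh UMIs in libraries 4, 5 and 6, a share of 62.2%, 65.5% and 63.9%, and the highest share was 89.5%, 83.6% and 88.1%. At the threshold the cells were continuous. The nearest cells outside had 49.9% in each library and the nearest inside 50.1%, 50.1% and 50%, with 85, 37 and 97 cells from 45% to under 50% and 138, 67 and 179 from 50% to under 55%. Members are thus a range cut from a continuous score, whose lower edge lies in the flank of the upper peak.

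**Figure D1:**
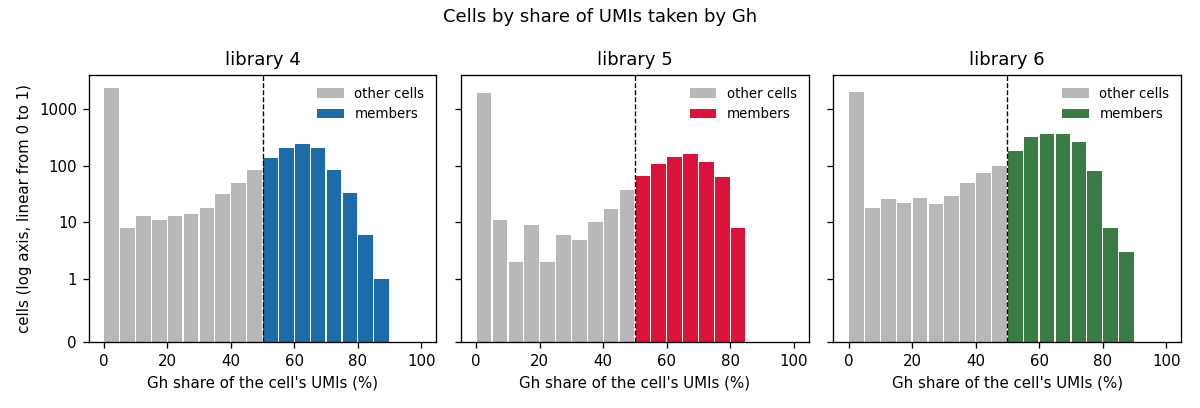
Number of cells (log axis, linear from 0 to 1) by the share of the UMIs of a cell taken by Gh, in bins of 5%, 1 panel for each of libraries 4 to 6. Coloured bars are members (919, 660 and 1574 cells), grey bars the other cells, and the dashed line is the 50% threshold. Most cells lie under 5% or above 50%, with few from 5% to 30%.

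Because Gh dominates, every level given from here on is the summed UMIs of a gene over the cells of a class, per 1000000 UMIs without Gh (CPM). This left a median of 502, 352 and 445 UMIs and 359, 267.5 and 309 genes in a member, and summed depths of 497785, 267741 and 821883 UMIs in libraries 4, 5 and 6. Other cells are the 6960 cells of the same libraries that are not members. Ratios are log2 of the level in members over that in other cells within a library, with 10 CPM added to both, and intervals are exact Poisson 95% intervals. Intervals cover counting error only. With 1 pool a library and no group, there is no replicate and no test, and a gene is called higher or lower only when it lies past 2-fold in the same direction in all 3 libraries.

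The label held for the 2 markers that the rule did not use directly, although a gene of the same cells is no independent test of a class cut from them. Ghrhr, the GHRH receptor (chr6:55376295-55388530, plus strand), stood at 273 (229 to 323), 258 (201 to 326) and 196 (167 to 229) CPM in members of libraries 4, 5 and 6, against 14.2, 7.93 and 10.7 in other cells. Members lay above other cells in each library, with intervals far apart, at log2 ratios of 3.55, 3.90 and 3.32. Few single members showed it at this depth. With each cell thinned to 200 UMIs without Gh, which left out 21, 78 and 28 members, 5.35%, 6.01% and 4.33% of members had a Ghrhr UMI (13.3%, 9.85% and 9.85% unthinned), against 0.428%, 0.245% and 0.342% of other cells and 1.10%, 0% and 0% of microglia-led cells. Pou1f1 (chr16:65520511-65535005, plus strand) stood at 458 (401 to 522), 369.8 (301 to 450.2) and 498 (451 to 548) CPM in members against 60.4, 44.4 and 162 in other cells, log2 ratios of 2.73, 2.80 and 1.56. The ratio was lowest in library 6, which also held the most Prl-led cells, and whether these set it was not tested. In Prl-led cells, in which Prl takes 10% or more of the UMIs without Gh, Pou1f1 stood at 479, 495 and 561, at or above its level in members.

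Both markers were high throughout the upper peak of Gh share. Over the 3 libraries together, Ghrhr stood at 2.16 CPM in cells with under 10% Gh and at 167 from 40% to 50%, then at 202, 259 and 208 in the next 3 bins of 10%. Dlk1, an imprinted membrane protein of the Notch-ligand family, went from 354 through 3250.2 to 3809, 4288 and 5586 CPM over the same bins, and Dapl1 from 26.1 through 447 to 734, 909 and 989.9. Pou1f1 stood at 81.1, 399, 469, 469 and 441. The order of the bins from 50% on was not the same in every library for Ghrhr and Pou1f1. At the threshold, the libraries differed. Ghrhr stood at 356, 342 and 59.7 CPM just outside it (45% to 50%) and at 177, 224 and 241 just inside (50% to 55%). Prl stood at 4099.6, 797 and 11836 just outside and 795, 4260.4 and 2328 just inside. In library 5, 2 members at 52.1% and 54.7% Gh held 87 and 15 Prl UMIs, of 136 in its members from 50% to 60%. The Prl level just inside in library 5 thus rests mostly on these cells.

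**Figure D2:**
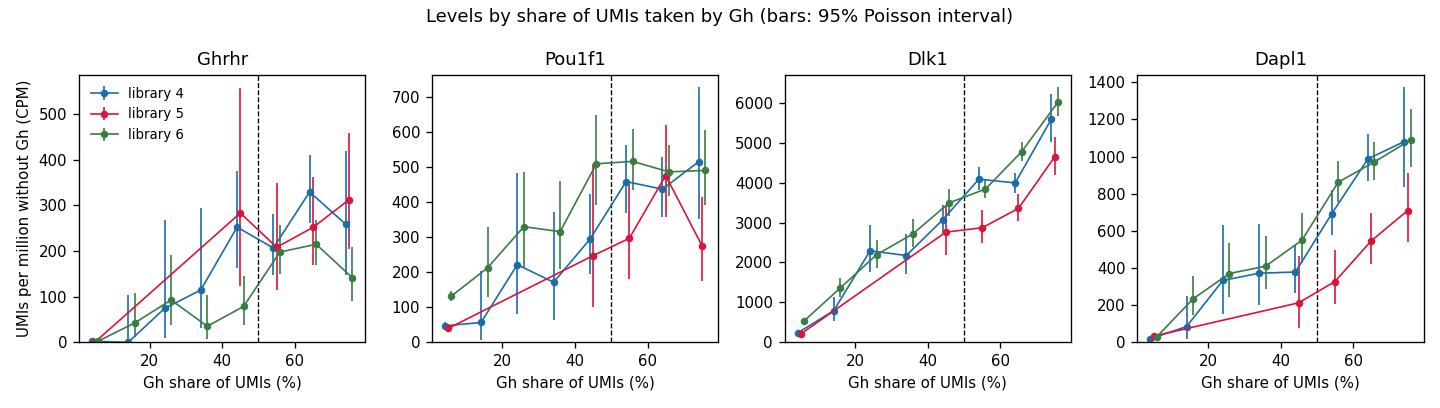
Level (CPM without Gh) of Ghrhr, Pou1f1, Dlk1 and Dapl1 by the Gh share of the cell in bins of 10%, 1 line for each of libraries 4 to 6, drawn for bins of 20 or more cells. Bars are exact Poisson 95% intervals and the dashed line is the 50% threshold. The 4 genes are low under 10% Gh and high on both sides of the threshold.

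Members against all other cells differed in 176 genes called higher and 325 called lower, of the 5928 with a mean level of 25 CPM or more, which is 2.97% and 5.48%. The split moved with the scaling. With Gh, 6 further hormone genes, mitochondrial transcripts and hemoglobin all left out (hormone-free totals), 151 of 6343 genes were higher (2.38%) and 411 lower (6.48%). The median log2 ratio over all genes tested was 0.15, 0.03 and 0.12, and 0.04, -0.04 and -0.02 with hormone-free totals. All 15 genes with the highest ratios were called with both totals.

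Dapl1, a small protein named for its likeness to a death-associated protein (chr2:59484653-59505020, plus strand), stood at 884, 538 and 958 CPM in members of libraries 4, 5 and 6 and at 41.8, 37.3 and 79.1 in other cells, log2 ratios of 4.11, 3.54 and 3.44. It led the genes other than Gh in this comparison, and 14.1%, 9.62% and 15.3% of members had a UMI of it when thinned to 200 UMIs. Dlk1 (chr12:109452823-109463336, plus strand) was the most abundant of the 15, at 4253, 3653 and 4733 CPM in members and 400.2, 287 and 798 in other cells, log2 ratios of 3.38, 3.62 and 2.55. A Dlk1 UMI was found in 55.8%, 49.0% and 59.96% of members at equal depth, against 1.10%, 2.96% and 11.4% of microglia-led cells. Snhg18, a host transcript of small nucleolar RNA, stood at 1221, 975 and 1550.1 CPM against 144, 84.8 and 217. Pappa2, a secreted protease that cuts IGF-binding proteins, stood at 201, 153 and 156 CPM against 9.33, 0.793 and 12.04, and the chemokine gene Ccl17 at 209, 317 and 170.3 CPM against 11.4, 18.2 and 14.8. The members' lowest library lay above the other cells' highest for each of these 5 genes. 5330429C05Rik, an uncharacterised transcript, stood at 315, 373 and 415 CPM against 23.5, 13.5 and 45.7.

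Isg20, an exonuclease known from the interferon response, stood at 153, 202 and 173 CPM in members. Mrap2, an accessory protein of melanocortin and ghrelin receptors, stood at 123, 134 and 85.2 CPM, and the autophagy gene Atg9b at 96.4, 101 and 79.1 CPM. Sec14l4, a lipid-binding protein, stood at 52.2, 63.5 and 55.97 CPM, and the transcripts 5730403I07Rik and Gm12057 at 66.3, 63.5 and 85.2 CPM and at 40.2, 41.1 and 64.5 CPM. Ceacam10, an adhesion protein, differed most between libraries among the 15, at 60.3, 247 and 66.9 CPM. It was highest in library 5, and stood at 2.43, 3.96 and 4.82 in other cells. The 10 genes lowest in members against other cells were the hormone genes Lhb, Fshb, Cga, Pomc and Prl, together with Rarres2, Ccdc153, Tgfbr3l, Tmem212 and Mia. Ccdc153 and Tmem212 are genes of motile cilia, and Tgfbr3l belongs to gonadotrophs. In a further run, cells that held UMIs of 2 or more markers of 1 other type were left out of both sides. The largest log2 ratio over the 3 libraries then turned positive for Tmem212, Rarres2 and Ccdc153, at 0.68, 0.49 and 0.83. Their ratios in the other libraries are not given here. These 3 genes are among the ependymal markers by which that step removes cells.

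**Figure D3:**
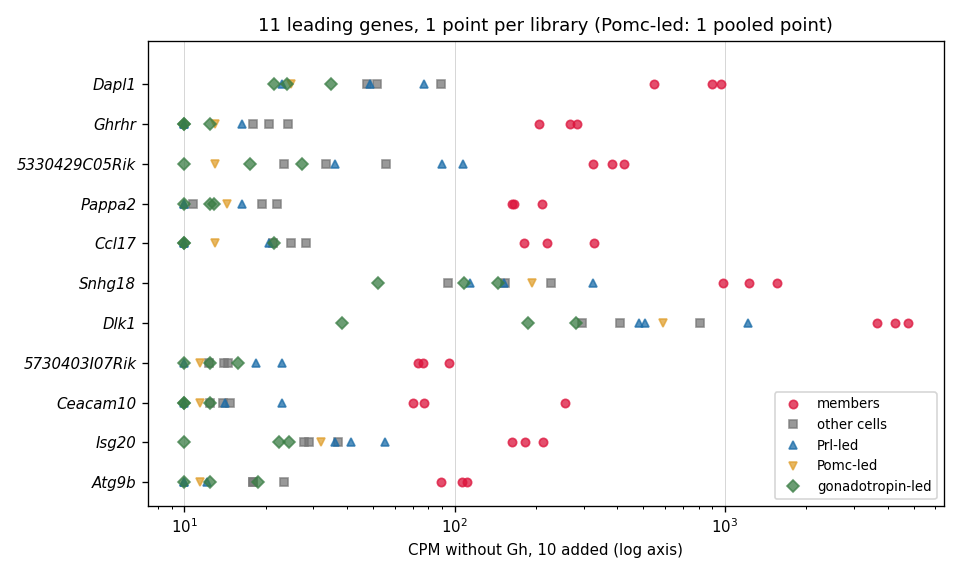
Level (CPM without Gh, plus 10, log axis) of the 11 genes with the highest ratio of members over other cells, in members, in other cells and in Prl-led, Pomc-led and gonadotropin-led cells. Points are libraries 4 to 6, except Pomc-led cells, which are pooled over them. Members lie highest for the genes drawn, with Dlk1 at 4253, 3653 and 4733 CPM.

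Receptors and lineage regulators of somatotrophs, 31 genes, gave 16 that could be tested. Of these, 3 were higher (Ghrhr, Pou1f1 and Rxrg) and 1 lower, where 2.97% and 5.48% of all genes were. The medians were 0.71, 0.73 and 0.49 against 0.15, 0.03 and 0.12 over all genes. With hormone-free totals the same 3 of 17 were higher and 1 lower, where 2.38% and 6.48% of all genes were. The medians were then 0.44, 0.56 and 0.16. Against Prl-led cells the list had medians of 0.13, -0.07 and -0.06, below those of all genes there at 0.48, 0.50 and 0.45. Of 18 tested there, 5 were higher and 2 lower, where 7.43% and 0.891% of all genes were. With hormone-free totals 3 of 18 were higher and 3 lower, where 3.63% and 1.72% were. Rxrg, a retinoid X receptor, stood at 94.4, 67.2 and 76.7 CPM in members against 10.9, 18.2 and 8.60. The gene called lower was Msx1, a homeobox factor, at 26.1, 22.4 and 23.1 CPM against 107, 61.8 and 132. The insulin-like growth factor receptor Igf1r, through which IGF feeds back on somatotrophs, stood at 201, 194 and 187 CPM in members and 100.2, 130.0 and 102 in other cells, a difference under 2-fold in each library with 10 CPM added. Receptors for somatostatin and ghrelin were low. Of the somatostatin receptors, Sstr3 stood at 28.1, 37.3 and 19.5 CPM, Sstr5 at 22.1, 7.47 and 13.4 CPM and Sstr2 at 2.01, 0 and 6.08 CPM. The ghrelin receptor Ghsr stood at 2.01, 0 and 1.22 CPM. Esr1, the estrogen receptor, stood at 117, 93.4 and 43.8 CPM, and the endocrine factors Neurod4 and Insm1 at 36.2, 26.1 and 41.4 CPM and at 84.4, 48.6 and 47.5 CPM. No UMI of the dopamine receptor Drd2 was counted in members, which allows up to 1.89 CPM over the 3 libraries together (3 counts of the summed total). In Prl-led cells Drd2 was also near 0, at 0, 0 and 4.20 CPM, so it does not set members apart from them.

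Downstream of the GHRH receptor, 15 of 23 genes of cAMP signalling were tested and 1 was higher, Prkar2b, a regulatory subunit of protein kinase A. It stood at 82.4, 59.8 and 59.6 CPM in members and 18.7, 17.4 and 18.2 in other cells, log2 ratios of 1.69, 1.35 and 1.30. Gnas was high in members at 3554, 3003 and 3398 CPM and stood at 3218, 2036 and 3473 in other cells. None of the 15 was lower. The list lay near all genes, with 1 of 15 higher where 2.97% of all genes were and medians of 0.12, 0.09 and -0.03. Prkar2b and Rxrg were also higher in members than in Prl-led, Pomc-led and gonadotropin-led cells, with both totals, as was Grb10, an imprinted adaptor of insulin and IGF receptors that stood at 119, 52.3 and 83.95 CPM in members.

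Of the GH and IGF axis, 11 of 20 genes were tested, with Pappa2 higher and 4 IGF-binding protein genes lower (Igfbp2, Igfbp3, Igfbp5 and Igfbp7), where 2.97% and 5.48% of all genes were. With hormone-free totals 5 of 12 were lower, with Sst, the somatostatin gene, added. Igfbp5 stood at 80.4, 18.7 and 79.1 CPM in members and 732, 364 and 806 in other cells, and Igfbp2 at 4.02, 3.73 and 4.87 CPM and 43.4, 110.2 and 38.2. In Prl-led cells Igfbp5 stood at 19.4, 0 and 31.5, below members, a call that was lost with hormone-free totals.

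Genes of entry into and folding in the endoplasmic reticulum (ER), the path a secreted hormone takes, lay high as a list. Of 50 in the table, 49 were tested, 6 were higher and none lower, where 2.97% and 5.48% of all genes were. The medians were 0.69, 0.89 and 0.62 against 0.15, 0.03 and 0.12 over all genes, and 0.58, 0.83 and 0.48 with hormone-free totals. The 6 were the same with both totals. Kdelr2, which returns ER proteins from the Golgi, stood at 506, 478 and 479 CPM in members and 167, 139 and 201 in other cells. P4hb, a protein disulfide isomerase, stood at 333, 273 and 350.4 CPM against 127, 103 and 149, and Dnajb9, an ER cochaperone, at 299, 291 and 318 CPM against 95.3, 119.7 and 106. Atf4, a transcription factor of the stress response to misfolded protein, stood at 201, 224 and 210.5 CPM against 87.6, 80.9 and 83.2. Kdelr3 and Spcs3, a subunit of signal peptidase, completed the list, Spcs3 at 98.4, 78.4 and 98.6 CPM.

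Members stood closer to Prl-led cells, another class led by 1 hormone, in these genes than to other cells as a whole. Against Prl-led cells 1 of 48 ER genes was higher, Atf4, where 7.43% of all genes were, with medians of 0.26, 0.35 and 0.23, and -0.09, -0.04 and -0.17 with hormone-free totals. The median over all genes against Prl-led cells was 0.48, 0.50 and 0.45, and 0.11, 0.11 and 0.12 with hormone-free totals, so the ER list lay below all genes with both. Against Pomc-led cells 17 of 48 ER genes were higher, where 10.7% of all genes were, and with hormone-free totals 4 of 48 (Ssr3, Dnajb9, Herpud1 and Kdelr1), where 5.34% of all genes were. Against gonadotropin-led cells 8 of 48 were higher, where 5.45% of all genes were, and with hormone-free totals 2 of 48 (Dnajb9 and Kdelr2), where 3.13% were. The counts with hormone-free totals lie near the share over all genes. The medians lay above those of all genes, at 0.47, 0.71 and 0.59 against Pomc-led cells (all genes 0.20, 0.14 and 0.06) and 0.43, 0.32 and 0.30 against gonadotropin-led cells (all genes 0.09, 0.01 and -0.01).

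Secretory granules and hormone processing, 25 of 32 genes tested, gave 3 higher and 3 lower, where 2.97% and 5.48% of all genes were, with medians of -0.02, 0.00 and -0.07. Higher were Syt7, Rab27a and Sytl4, which act in granule docking or release. The calcium sensor Syt7 stood at 149, 112 and 133 CPM against 43.8, 38.8 and 44.7, the small GTPase Rab27a at 129, 74.7 and 91.3 CPM against 40.1, 23.8 and 31.6, and Sytl4 (granuphilin), a Rab27a partner, at 121, 52.3 and 82.7 CPM against 32.04, 11.1 and 17.9. Lower were Chga and Scg2, which encode granins, and Pcsk2. Chga stood at 108, 119.5 and 127 CPM against 869, 788 and 656, Scg2 at 369.6, 261 and 377 CPM against 1931, 1334 and 1839, and the prohormone convertase Pcsk2 at 46.2, 33.6 and 73.00 CPM against 304, 119.7 and 424. Fewer of these calls held against the hormone-led classes, with both totals. Sytl4 was higher only than in Prl-led cells, Syt7 only than in Pomc-led cells, and Rab27a was called against no class. Scg2 was lower than in each class, and Chga and Pcsk2 than in Pomc-led and gonadotropin-led cells but not Prl-led cells. Of 11 ion channel genes tested for membrane excitability, the potassium channel Kcnk2 was higher, at 565, 478 and 549 CPM against 167, 108 and 203, and the sodium channel Scn2a1 lower, where 2.97% and 5.48% of all genes were. With hormone-free totals Kcnk3 was lower as well.

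Imprinted genes of endocrine cells, 13 of 15 tested, gave 4 higher and 1 lower, where 2.97% and 5.48% of all genes were, with medians of 0.67, 0.57 and 0.41. A run of neighbours on chromosome 12 was among the higher, Dlk1, Meg3 (109541001 to 109571726) and Mirg (109729764 to 109749460). Meg3, a maternally expressed long noncoding RNA, was the most abundant at 13952, 10794 and 12171 CPM against 5412, 3977 and 5123, and Mirg, a host of microRNAs, stood at 167, 168 and 155 CPM against 45.8, 38.05 and 48.8. Plagl1, a zinc finger factor of the imprinted network, stood at 442, 369.8 and 580.4 CPM against 94.9, 68.96 and 154. Cdkn1c, an inhibitor of the cell cycle, was lower at 8.04, 0 and 2.43 CPM against 85.97, 86.4 and 61.6. Against the hormone-led classes, Dlk1 was higher in members than in each class with both totals. Meg3 was not called against Prl-led or Pomc-led cells, and Plagl1 was not called against Prl-led cells. With hormone-free totals neither Meg3 nor Plagl1 was called against any class, and Mirg only against gonadotropin-led cells. Meg3 is also a marker in the neuron list, where it was the single gene higher in members than in other cells while 3 of 7 were lower.

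**Figure D4:**
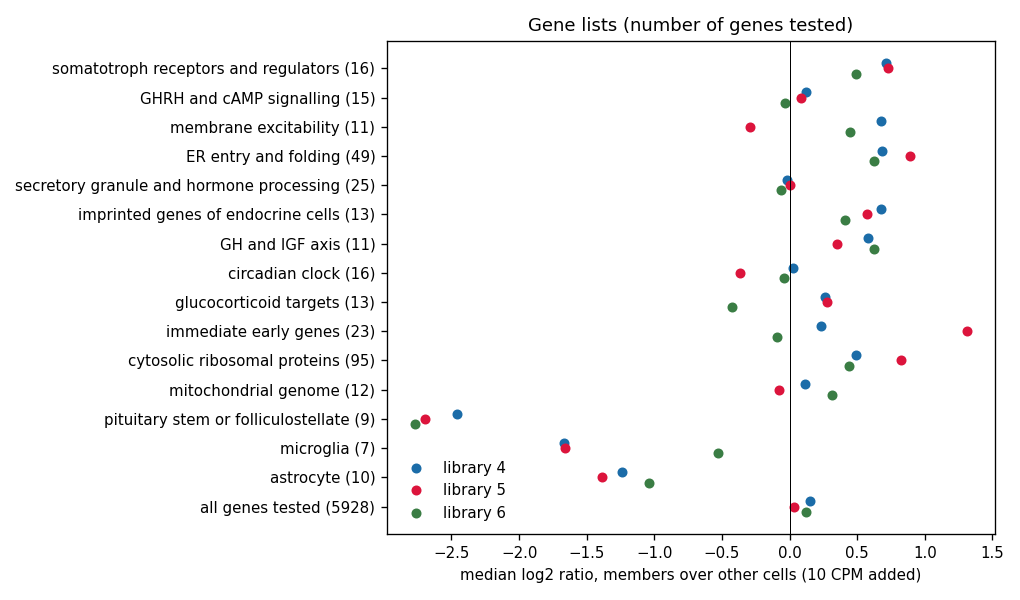
Median log2 ratio of members over other cells for 15 gene lists and for all 5928 genes tested, with 1 point for each of libraries 4 to 6. Numbers in brackets are genes tested. ER entry and folding lies at 0.69, 0.89 and 0.62 and cytosolic ribosomal proteins at 0.49, 0.82 and 0.44, above all genes at 0.15, 0.03 and 0.12.

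Transcripts of other hormones were present in members at low levels. Prl stood at 1043, 1038 and 2541 CPM, Pomc at 1362, 119.5 and 2391 CPM, Cga, the shared glycoprotein hormone subunit, at 783, 247 and 812 CPM and Lhb at 199, 101 and 219 CPM. Each of these was lower than in other cells. At equal depth a Prl UMI was found in 15.5%, 13.7% and 35.7% of members and in 10.5%, 8.88% and 31.8% of microglia-led cells, which are read as background. Members lay little above it. A Pomc UMI was found in 20.7%, 1.89% and 34.5% of members against 17.1%, 5.92% and 20.5% of microglia-led cells. In single members the highest Prl count was 44, 87 and 162 UMIs. Members with 10 or more numbered 3, 2 and 7 and held 15.4%, 36.7% and 17.3% of the members' Prl UMIs. Prl took 10% or more of the UMIs without Gh in 1 member of each library, Pomc in 1, 0 and 1, and the gonadotropin genes took 2% or more in 0, 0 and 1. Tshb, the thyrotroph hormone, had a UMI in 15, 4 and 47 members. Whether the few members rich in another hormone are single cells or pairs of cells was not tested, and Scrublet, a doublet caller, called 5 of the 10113 cells.

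Markers of other cell types varied in how far they lay below other cells. All 9 pituitary stem or folliculostellate genes tested were lower, as were 5 of 7 ependymal, 5 of 10 astrocyte, 3 of 5 pericyte, 3 of 7 neuron, 1 of 2 fibroblast, 1 of 7 microglial and 1 of 7 endothelial genes, against 5.48% of all genes. With hormone-free totals 5 of 7 endothelial genes were lower (Flt1, Cldn5, Ly6c1, Itm2a and Egfl7), against 6.48%. Of the 4 globin genes tested 0 were lower, and Meg3 of the neuron list was higher. Members with UMIs of 2 or more markers of 1 such type numbered 73, 78 and 105 (7.94%, 11.8% and 6.67%). Members with 3 or more cell cycle genes numbered 0, 1 and 0.

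Members were then compared with the 3 classes of cells led by another pituitary hormone. Prl-led cells numbered 164, 107 and 499 in libraries 4, 5 and 6. Pomc-led cells (Pomc at 10% or more) numbered 377, 18 and 314 and were pooled over the libraries. Gonadotropin-led cells (Lhb, Fshb and Cga at 2% or more together, with Lhb or Fshb) numbered 216, 64 and 267. The median gene was higher in members than in each class, by 0.48, 0.50 and 0.45 on the log2 scale against Prl-led, 0.57, 0.51 and 0.46 against Pomc-led and 0.37, 0.36 and 0.24 against gonadotropin-led cells. With hormone-free totals these medians were 0.11, 0.11 and 0.12, then 0.20, 0.14 and 0.06, then 0.09, 0.01 and -0.01. Counts are given with both totals.

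Against Prl-led cells, 367 of 4938 genes were higher in members (7.43%) and 44 lower (0.891%), and with hormone-free totals 204 of 5624 (3.63%) and 97 (1.72%), so the share of higher genes among all calls went from 89.3% to 67.8%. Of the 15 leading higher genes all 15 were called with both totals, and of the 10 leading lower genes 9. Ghrhr had no UMI in Prl-led cells of libraries 4 and 5 and stood at 6.31 CPM in library 6. Cyr61, a matricellular growth-response gene, stood at 145, 474 and 229 CPM in members and had no UMI in Prl-led cells, which allows up to 4.24 CPM over the 3 libraries. The glucocorticoid receptor Nr3c1 stood at 165, 149 and 131 CPM in members against 0, 0 and 6.31 in Prl-led cells. Alcam, a cell adhesion molecule, stood at 402, 373 and 271 CPM against 12.95, 13.02 and 23.1, and the channel Kcnk2 at 565, 478 and 549 CPM against 64.8, 65.1 and 67.3. Dapl1, Pappa2, Ccl17, Rxrg and Atg9b were among the 15 as well. Dlk1 stood at 473, 495 and 1211 in Prl-led cells, below members in each library. Among genes lower in members, the granule protein gene Chgb stood at 589, 452 and 791 CPM against 4566, 4519 and 4401, the homeobox factor Six6 at 70.3, 33.6 and 54.8 CPM against 544, 378 and 509, Hepacam2 at 8.04, 3.73 and 7.30 CPM against 175, 182 and 114 and Angpt1, an angiogenic ligand, at 0, 3.73 and 0 CPM against 84.2, 65.1 and 58.9.

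Glucocorticoid targets are genes that the receptor encoded by Nr3c1 switches on. Of 11 tested, 8 were higher in members than in Prl-led cells, where 7.43% of all genes were. Their medians were 2.08, 2.45 and 1.51, against 0.48, 0.50 and 0.45 over all genes. With hormone-free totals 6 of 12 were higher, where 3.63% of all genes were, with medians of 1.67, 1.70 and 1.30. Those over all genes were then 0.11, 0.11 and 0.12. The 6 were Fkbp5, Mt1, Mt2, Nfkbia, Sult1a1 and Klf9. Fkbp5, a cochaperone of the receptor and a standard reporter of its action, stood at 283, 187 and 254 CPM in members against 19.4, 26.05 and 25.2 in Prl-led cells. Mt1, a metallothionein, stood at 1812, 6521 and 3859 CPM against 518, 873 and 1053. Against Pomc-led cells 6 of 11 were higher, where 10.7% of all genes were, and 5 of 12 with hormone-free totals, where 5.34% were. Against gonadotropin-led cells 4 of 13 were higher and 1, Lcn2, lower, where 5.45% and 2.58% of all genes were. With hormone-free totals 3 of 13 were higher and Lcn2 lower, where 3.13% and 3.75% of all genes were. Of 13 tested against all other cells together, none was higher and 1, Lcn2, was lower, near the 2.97% and 5.48% of all genes.

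Against Pomc-led cells, 531 of 4952 genes were higher in members (10.7%) and 69 lower (1.39%), and with hormone-free totals 303 of 5671 (5.34%) and 157 (2.77%). The share of higher genes among calls went from 88.5% to 65.9%. Pou1f1 stood at 16.3 CPM and Ghrhr at 2.96 in Pomc-led cells, and Dlk1 at 578. Genes lower in members were led, after Pomc, by Pcsk2, the convertase that cuts its product, at 46.2, 33.6 and 73.00 CPM against 2068. Pax7, the melanotroph selector factor, stood at 0, 0 and 1.22 CPM against 104, the factor Etv1 at 14.1, 22.4 and 23.1 CPM against 293, and Oacyl at 0, 0 and 7.30 CPM against 318.

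Against gonadotropin-led cells, 292 of 5359 genes were higher in members (5.45%) and 138 lower (2.58%), and with hormone-free totals 189 of 6031 (3.13%) and 226 (3.75%), so the share of higher genes went from 67.9% to 45.5% and the balance turned. Dlk1 stood at 176, 28.2 and 270.4 and Pou1f1 at 11.6, 14.1 and 20.03 in gonadotropin-led cells. Dapl1, Dlk1, Ghrhr, Pou1f1, Pappa2, Snhg18, Ccl17 and Mrap2 were among the 15 leading genes, all called with both totals. Gnrhr, the receptor for gonadotropin-releasing hormone, had no UMI in members and stood at 439, 804 and 493 in gonadotropin-led cells. Tgfbr3l stood at 22.1, 7.47 and 21.9 CPM against 3385, 5049.5 and 3059.6, and the granule proteins Scg2 and Chga at 369.6, 261 and 377 CPM against 10268, 13921 and 9326 and at 108, 119.5 and 127 CPM against 3929, 5670.1 and 2777.

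Members also differed between libraries. Of 1495 genes with a mean of 100 CPM or more in members, 70 (4.68%) had levels at least 2-fold apart between the highest and lowest library with intervals that did not overlap. The highest library was library 5 for 50 of the 70 (3.34% of those tested) and libraries 4 and 6 for 10 each. Some of the 50, such as Avp, Itih3 and Ceacam10, stood under 100 CPM in libraries 4 and 6. They passed the level filter only through library 5, so being highest there follows from the filter. The call covers counting error only, and 410 genes (27.4%) had intervals apart at any fold. Without library 5, 13 genes were called between libraries 4 and 6, without library 6 there were 41 and without library 4 there were 56. Library 5 was also the shallowest of the 3, with the fewest UMIs and genes in the median member.

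Immediate early genes, which are switched on within minutes of a stimulus, were prominent among these. All 16 tested were called, where 4.68% of all genes were, and all 16 were highest in library 5. Klf2, Atf3 and Nr4a1 stood under 100 CPM in libraries 4 and 6 and passed the level filter only through library 5. For them, being highest in library 5 follows from the filter. The sum over all 25 listed genes, given below, uses no such filter. Fos stood at 575 (509.9 to 645), 2334 (2155 to 2525) and 1090.2 (1020.0 to 1164) CPM in libraries 4, 5 and 6. Junb stood at 900.0, 2659 and 949 CPM, Jun at 181, 945 and 378 CPM and Ier2 at 399.8, 1329.6 and 558 CPM. Library 6 lay between for these 4 genes. Btg2 stood at 530.3, 1199 and 464 CPM and Egr1 at 346, 571 and 228 CPM, with library 6 lowest. Atf3, a stress-induced factor, stood at 6.03, 280.1 and 86.4 CPM, on 3, 75 and 71 UMIs. The 25 genes of the list summed to 4906 (4713 to 5104), 14051 (13605 to 14507) and 5896 (5731 to 6065) CPM, so library 5 was 2.86 times library 4 and 2.38 times library 6. At equal depth, 8.46% (exact 95% interval 6.73 to 10.5), 26.3% (22.8 to 30.1) and 11.1% (9.60 to 12.8) of members had UMIs of 3 or more of these genes, against 26.7%, 29.5% and 23.4% unthinned. At equal depth a larger share of members carried them in library 5 than in the other libraries.

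Other cells of library 5 shared this in part. The same sum was 2869, 6733 and 2999 CPM in Prl-led cells, 3330, 6375 and 5388 in gonadotropin-led cells and 4845, 9049 and 3647 in microglia-led cells. Library 5 was the highest for 12, 10 and 15 of the 16 genes in these classes. Those 16 were chosen by their level in members, some through library 5 alone, so this tally is a description. In the remaining cells, those under 20% Gh in none of the classes, the order was another, at 4399, 4491 and 7631 CPM, with library 6 highest for 15 of the 16 genes. Members of library 5 stood above each of these classes of that library in this sum, and above its 18 Pomc-led cells at 9083. Which region and sleep group each library came from is not known here, so their part in this was not tested.

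**Figure D5:**
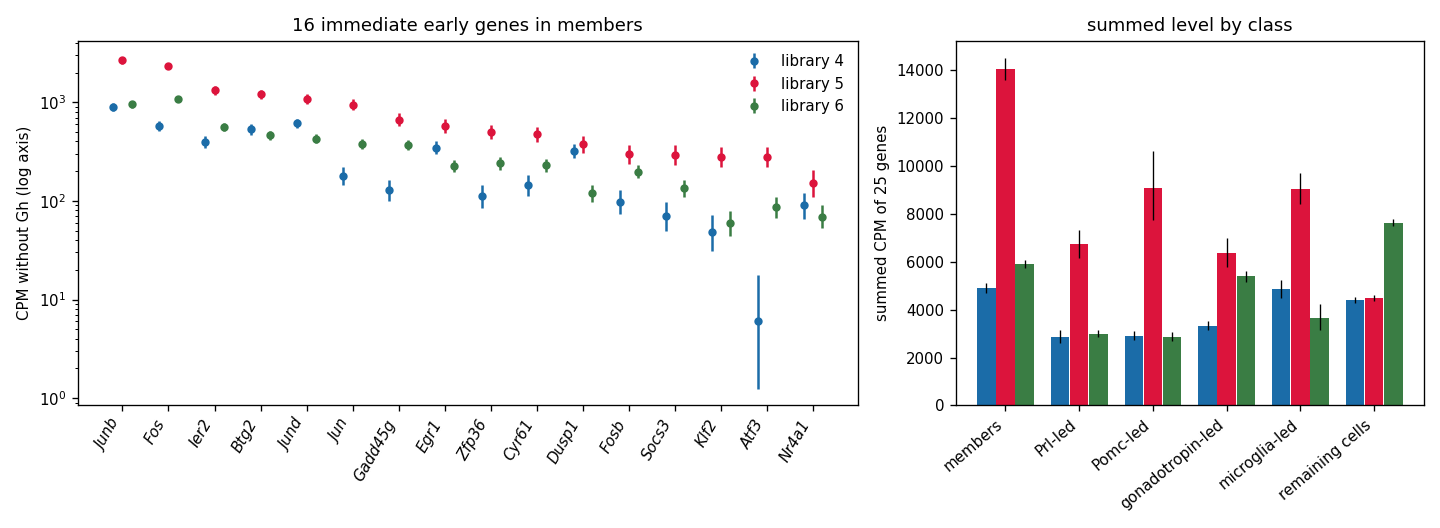
Left, level in members (CPM without Gh, log axis) of 16 immediate early genes in libraries 4 to 6, with exact Poisson 95% intervals. Right, summed CPM of 25 immediate early genes in members and in the other classes by library, from 0, with the same intervals. Library 5 is highest for each gene in members and reaches 14051 CPM, against 4906 and 5896.

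Among the other genes that differed between libraries in members, metallothioneins went the same way. Mt1 stood at 1812, 6521 and 3859 CPM and Mt2 at 809.6, 2278 and 1136 CPM in members of libraries 4, 5 and 6, and the cell cycle inhibitor Cdkn1a at 115, 194 and 86.4 CPM. Of 10 genes with the highest ratio between libraries, Hba-a2, Hba-a1, Hbb-bs and Hbb-bt, the globin genes of red cells, differed by 22.3, 21.2, 17.7 and 13.4 times, Pomc by 18.5 and Avp, the vasopressin gene of hypothalamic neurons, by 4.53. Somatotrophs are not known to make any of these 6 products, and their levels in members differed with the library. Globins summed to 2678, 2954 and 118 CPM, but 1 member of library 4 held 1043 of the 1333 globin UMIs there and 1 of library 5 held 337 of 791. Without the richest member of each library the sum was 585, 1700.2 and 113 CPM. A globin UMI was found in 11.3%, 16.4% and 5.59% of members, and other classes had another order of libraries, with 110.1, 4636 and 395 CPM in Prl-led and 11784, 132 and 183 CPM in microglia-led cells. Avp stood at 80.4, 261 and 49.9 CPM and passed the level filter only through library 5. Jun, Atf3, Klf2 and Gadd45g completed the 10. Insig1 and Dbi, genes of sterol and lipid metabolism, were highest in library 6, and Ptprn, a granule membrane protein, Pde10a and Rock2 in library 4. Of 91 ribosomal protein genes, 40 ER genes and 10 imprinted genes tested, 0 were called between libraries, where 4.68% of all genes were. For the ER and imprinted lists, 0 lies near that share. Intervals lay apart at under 2-fold for 63, 10 and 6 of them, and at any fold for 27.4% of all genes. The marker genes Ghrhr, Pou1f1 and Dlk1 were within 2-fold.

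Among members of 1 library, the genes of highest level without Gh were Malat1, a nuclear noncoding RNA, at 103322, 74692 and 124408 CPM, then mt-Co3, Meg3, Rpl41, mt-Atp6, mt-Co1, Rps27, Rpl37a, mt-Cytb and Rps29. These are mitochondrial, ribosomal and noncoding transcripts, and of them Meg3 was called higher in members than in other cells. Mitochondrial transcripts took 5.83%, 5.82% and 4.38% of UMIs without Gh. Cell-to-cell spread was given by the Fano factor, the variance of depth-scaled counts over their mean, which had a median of 1.12 over the 286 genes with a mean of 0.2 UMI a member or more. The 10 highest were Hbb-bs, Prl, Malat1, Pomc, mt-Co3, mt-Atp6, Mt1, mt-Nd1, Cst3 and Actb. Hbb-bs led with up to 480, 132 and 2 UMIs in a single member of libraries 4, 5 and 6. Of these 10, none is specific to somatotrophs, and Ghrhr was below the level needed to be included.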

How the data were processed

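The deposited table holds whole-number UMI counts of 18634 genes in 29571 cells, made by the authors with Cell Ranger 2.2.0 and GRCm38 (per the labels, which also name R 3.5.3). The annotation release is not given in the sources used here. Cells were dissociated with papain, with myelin removed by beads. The 9 library codes matched no label, so no sample was assigned and no model was fitted. The members and gene lists were chosen with earlier results of these data known. Counts were summed by class and library without Gh, as CPM with exact Poisson 95% intervals, in Python 3.11.15 with numpy 2.4.6, scipy 1.17.1 and pandas 2.3.3. Genes averaging 25 CPM over the 6 profiles (100 CPM between libraries) were tested with 10 CPM added. Scrublet (scanpy 1.11.5, seed 1) called 0, 5 and 0 cells in libraries 4 to 6, too few to have worked, so all cells were kept and some members may be doublets. Thinning drew 200 UMIs without Gh from each cell. Named genes are the 15 highest and 10 lowest in each comparison by the smallest ratio over libraries, the 10 of highest level, library ratio or Fano factor, and members of the gene lists. The calling of genes was tested on simulated counts. Gene positions are from GENCODE M21 (GRCm38) and promoters from RefSeq. Some named-gene results are not reported here.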

Additional observations from a re-analysis of the deposited data

How the results depend on the processing

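No paired analysis was possible because the labels tie no library to a replicate number or group and no test was run. Among members, Ghrhr (smallest log2 ratio 3.32) and Pou1f1 (1.56) stayed above 2-fold against other cells under each alternative run. With Gh at 40% or more there were 3514 members. With 60% or more there were 2132, with Ghrhr at 2.47 and Pou1f1 at 1.30. Cells of 200 or more UMIs other than Gh left 3026. Without cells holding 2 or more markers of 1 other cell type there were 2897, with Pou1f1 at 1.15. There, 207 genes were lower than in other cells, and 131 of these were among the 325 called lower as reported. For Tmem212, Rarres2 and Ccdc153 the largest log2 ratio over the libraries changed sign, to 0.68, 0.49 and 0.83. Averaging over cells gave Pou1f1 1.31. Hormone-free totals gave 204 genes higher and 97 lower against Prl-led, 303 and 157 against Pomc-led, and 189 and 226 against gonadotropin-led cells. With 1 CPM added, 270 genes were higher than in other cells and 803 than in Pomc-led cells. With no minimum level, 645 were lower than in other cells, 586 higher than Prl-led, 800 higher and 160 lower than Pomc-led, 232 lower than gonadotropin-led and 325 apart between libraries. At 100 CPM or more, fewer genes were tested and counts were 58 and 95 against other cells, 58 and 15 against Prl-led, 105 and 16 against Pomc-led, and 64 and 45 against gonadotropin-led cells. Leaving out 1 library at a time loosens the call to 2 libraries. It gave Ghrhr 3.32 to 3.55 and Pou1f1 1.56 to 2.73, the latter without library 6. Genes higher numbered 200 to 274 against other cells, 501 to 637 against Prl-led, 594 to 779 against Pomc-led and 367 to 509 against gonadotropin-led cells, with 274, 637 and 509 without library 6. Genes lower numbered 310 to 459, 53 to 65, 78 to 81 and 165 to 183 in that order. Genes apart between libraries numbered 13 to 56, with 13 without library 5 and 41 without library 6. Leaving out the 5% of cells with the highest Scrublet scores, an alternative chosen after seeing the data, moved no count by over 1.5 times. Leaving out the member with the most globin UMIs, also chosen after seeing the data, took the globin sum of library 4 from 2678 to 585 CPM and of library 5 from 2954 to 1700.2. For single named genes, 302 values under the alternatives stayed within counting error of the reported log2 ratio and 40 moved further. The 3 named changed sign in their largest ratio. The spread between libraries was not used for this. Where no cause is given, the cause was not tested. Member depth, a median of 352 to 502 UMIs without Gh, limits what single cells show, and a gene with no UMI in members can still stand at up to 1.89 CPM.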

Other observations

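Among clock genes, 16 of 22 were tested in members against other cells. Dbp, a clock output factor, stood at 74.3, 74.7 and 47.5 CPM in members of libraries 4, 5 and 6 against 244, 182 and 152 in other cells and was called lower, as were 5.48% of all genes. All brains were taken at the same clock time.

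Cytosolic ribosomal protein genes lay above other cells as a list in members, with medians of 0.49, 0.82 and 0.44 over 95 genes. The medians over all genes were 0.15, 0.03 and 0.12. Of the 95, 0 were called higher or lower, where 2.97% and 5.48% of all genes were. Against Prl-led cells the ribosomal medians were 0.44, 0.52 and 0.41, near those of all genes there at 0.48, 0.50 and 0.45. With hormone-free totals they were 0.02, 0.08 and -0.0002, where those of all genes were 0.11, 0.11 and 0.12. Of 12 mitochondrially encoded genes tested, 0 were called higher or lower, near the 2.97% and 5.48% of all genes.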
